A study of Mus musculus with 35 samples.

Results

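The 10 genes followed here are ones that biochemistry and hormone treatment have long tied to the glucocorticoid receptor: Sgk1, Fkbp5, Tsc22d3, Zbtb16, Errfi1, Map3k6, Nfkbia, Sult1a1, Plin4 and Hif3a. They were taken by gene name, and all 10 were found among the 49568 genes of the count tables. All 10 also passed the filter on low counts that left 18063 genes for testing. RNA carrying a polyA tail was sequenced from the hypothalamus of male mice of strain B6/J at Zeitgeber time 16, that is, 16 h after lights-on, and each mouse gave 1 library. There were 10 control mice with free access to food and 10 control mice whose food was withdrawn for 16 h from lights-on. PER2-S662D mice came as 5 with free access and 5 fasted in the same way, and 5 mice labelled Per2 ko were all fasted. The design text calls the controls wild type. None of the libraries came from a fed mouse labelled Per2 ko, so no fasting response can be given for that genotype. PER2-S662D is a form of the clock protein PER2 in which the serine at a phosphorylation site is replaced by aspartate. The labels do not say how the S662D allele was introduced, which part of Per2 the knockout lacks, whether controls were littermates, or how old the mice were.

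The glucocorticoid receptor, encoded by Nr3c1, rests in the cytoplasm with heat-shock proteins until it binds the hormone, which in mice is corticosterone. It then enters the nucleus and binds DNA at glucocorticoid response elements, where it raises or lowers the transcription of nearby genes. Secretion of the hormone follows a daily rhythm under the control of the hypothalamus and also rises when food is withdrawn. Hormone levels are not part of the data used here.

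Where promoter sequence is at hand, the element was found near few of the starts of these genes. Windows from 250 bases before to 50 bases after each RefSeq transcript start (build GRCm38.p6) were searched for the palindrome AGAACA, any 3 bases, TGTTCT, for its half-site (AGAACA on either strand), for a looser core (GNACA, any 3 bases, TGTNC) and for the E-box bound by clock proteins (CACGTG). Windows were found for 9 of the 10 genes, 17 in all, since Sgk1 has 6 starts and Tsc22d3 and Errfi1 have several. Zbtb16 had no entry. The full palindrome was present in 3 of 32851 windows of all genes (0.00913%), and 1 of these 3 was the fifth Sgk1 start. The looser core was present in 0.475% of all windows and in 2 of the 17, at that Sgk1 start and at Map3k6. Half-sites were present in 19.0% of all windows and in 5 of the 17 (Sgk1, Tsc22d3 and Sult1a1), and the E-box in 7.15% of all windows and in 2 of the 17 (Sgk1 and Fkbp5). The 4 upstream sequences below show the core or a half-site in context, 1 per gene that holds either. A further 2 Sgk1 windows with a single half-site each are not printed. Each is given 5′ to 3′ on the gene's own strand and ends at the base before the start, and capitals mark matches, which overlap where an E-box and a half-site share bases. The counts do not show which start was used, and a match is only a run of letters.
Sgk1 (chr10:21993640-21993889, plus strand): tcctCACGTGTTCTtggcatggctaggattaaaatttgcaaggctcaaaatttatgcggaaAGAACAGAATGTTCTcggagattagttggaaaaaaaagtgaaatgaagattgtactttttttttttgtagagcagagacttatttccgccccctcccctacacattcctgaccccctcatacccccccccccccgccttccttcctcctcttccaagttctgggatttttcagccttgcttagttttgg
Map3k6 (chr4:133240568-133240817, plus strand): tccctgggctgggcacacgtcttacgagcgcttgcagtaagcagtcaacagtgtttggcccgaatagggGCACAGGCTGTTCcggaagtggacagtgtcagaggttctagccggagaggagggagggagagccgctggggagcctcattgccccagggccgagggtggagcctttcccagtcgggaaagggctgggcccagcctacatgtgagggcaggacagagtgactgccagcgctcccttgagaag
Tsc22d3 (chrX:140600523-140600772, minus strand): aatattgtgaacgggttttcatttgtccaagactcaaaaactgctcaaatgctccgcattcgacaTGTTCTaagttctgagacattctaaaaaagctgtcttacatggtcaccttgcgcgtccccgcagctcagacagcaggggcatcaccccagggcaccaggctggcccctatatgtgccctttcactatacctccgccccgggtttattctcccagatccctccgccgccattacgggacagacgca
Sult1a1 (chr7:126676419-126676668, minus strand): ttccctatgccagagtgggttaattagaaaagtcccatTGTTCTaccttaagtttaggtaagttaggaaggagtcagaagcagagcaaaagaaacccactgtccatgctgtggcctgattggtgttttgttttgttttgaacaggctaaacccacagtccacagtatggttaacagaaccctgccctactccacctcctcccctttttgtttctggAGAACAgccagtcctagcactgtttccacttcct
In the Sgk1 window the palindrome lay 189 to 175 bases before the start (chr10:21993701-21993715). An E-box and a half-site ran into each other 246 to 237 bases before it. In the Map3k6 window the looser core lay 181 to 169 bases before the start (chr4:133240637-133240649). Sult1a1 held 2 half-sites, 212 and 34 bases before its start, and Tsc22d3 held 1 half-site 185 bases before.

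Depth was 17959586 to 37027342 assigned counts per library. Values are CPM, the counts of a gene scaled to a common library size, with TMM factors, and a gene is called where edgeR's quasi-likelihood test gave it a Benjamini-Hochberg adjusted p below 0.05 over all 18063 genes. The nature of the replicates beyond 1 mouse per library is not stated, so p-values measure the spread between these libraries. Library numbers of controls 1 to 5, controls 6 to 10, the mice labelled Per2 ko and the S662D mice form separate ranges in the file headers, and S662D replicates 2, 3 and 4 carry an additional final digit. Genotype and library range therefore cannot be told apart for S662D and for the labelled knockout. The label check on Per2 showed no loss in the libraries labelled Per2 ko, with 30.3 ± 2.00 CPM (SD, n = 5) against 29.0 ± 2.45 CPM (SD, n = 10) in fasted controls. Per2 was lower in S662D mice than in controls, at 18.7 ± 1.98 CPM fed (SD, n = 5, edgeR adjusted p = 1.18e-07) and 19.9 ± 2.38 CPM fasted (SD, n = 5, edgeR adjusted p = 6.80e-07). Counts per gene name cannot show the loss of an exon. Comparisons with this group are therefore comparisons with the libraries so labelled. Markers of hypothalamic neurons were present in every group, with summed levels of 491.2 to 718.7 CPM over 9 genes. In whole tissue, more RNA per cell and more cells of the expressing type cannot be told apart.

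Fasting raised all 10 genes in control mice, from 1.38-fold for Errfi1 to 3.65-fold for Sgk1 (10 of 10 called higher, against 2.2% of all genes tested). The 10 genes were chosen with earlier results of these data known, so these shares are a description and no independent evidence. Their median log2 fold change was 1.26, and that of all genes tested was 0.00. Of 15479 genes averaging 1 CPM or more, Sgk1 ranked 3, Plin4 ranked 4 and Zbtb16 ranked 9 by log2 fold change, while Errfi1 ranked 170. The same 10 genes rose in S662D mice (10 of 10 called higher, against 1.8% of all genes), with a median log2 fold change of 1.32. In controls the fasted and fed mice did not overlap for 6 genes (Sgk1, Sult1a1, Hif3a, Map3k6, Nfkbia and Tsc22d3), a pattern shown by 0.371% of all genes. In S662D mice they did not overlap for 7 genes, against 1.96% of all genes, and the exceptions were Zbtb16, Map3k6 and Errfi1. Summed, the 10 genes made up 0.0298% to 0.0414% of all counts in a fed control mouse, and 0.0554% to 0.0959% after the fast.

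Within S662D libraries the estimated response differed between the library sets, a difference that was not tested. With replicates 2, 3 and 4, which carry the additional digit, the log2 fold change was 2.78 for Sgk1, 2.30 for Plin4, 2.09 for Hif3a and 0.78 for Errfi1. With replicates 1 and 5, it was 2.12, 1.77, 1.41 and 0.27 for these genes, and only Sgk1 was called (adjusted p = 0.0254 in edgeR, 2 mice against 2). All 10 estimates were positive in both sets. By the mean of the 10 genes described below, fasted replicate 5 (1.26) lay within the range of replicates 2, 3 and 4 (1.17 to 1.56). Fasted replicate 1 (0.47) lay below that range. All 10 genes were also called when fasted replicate 1 was left out, with Sgk1 at 2.67, Sult1a1 at 1.70 and Errfi1 at 0.70.

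**Figure D1:**
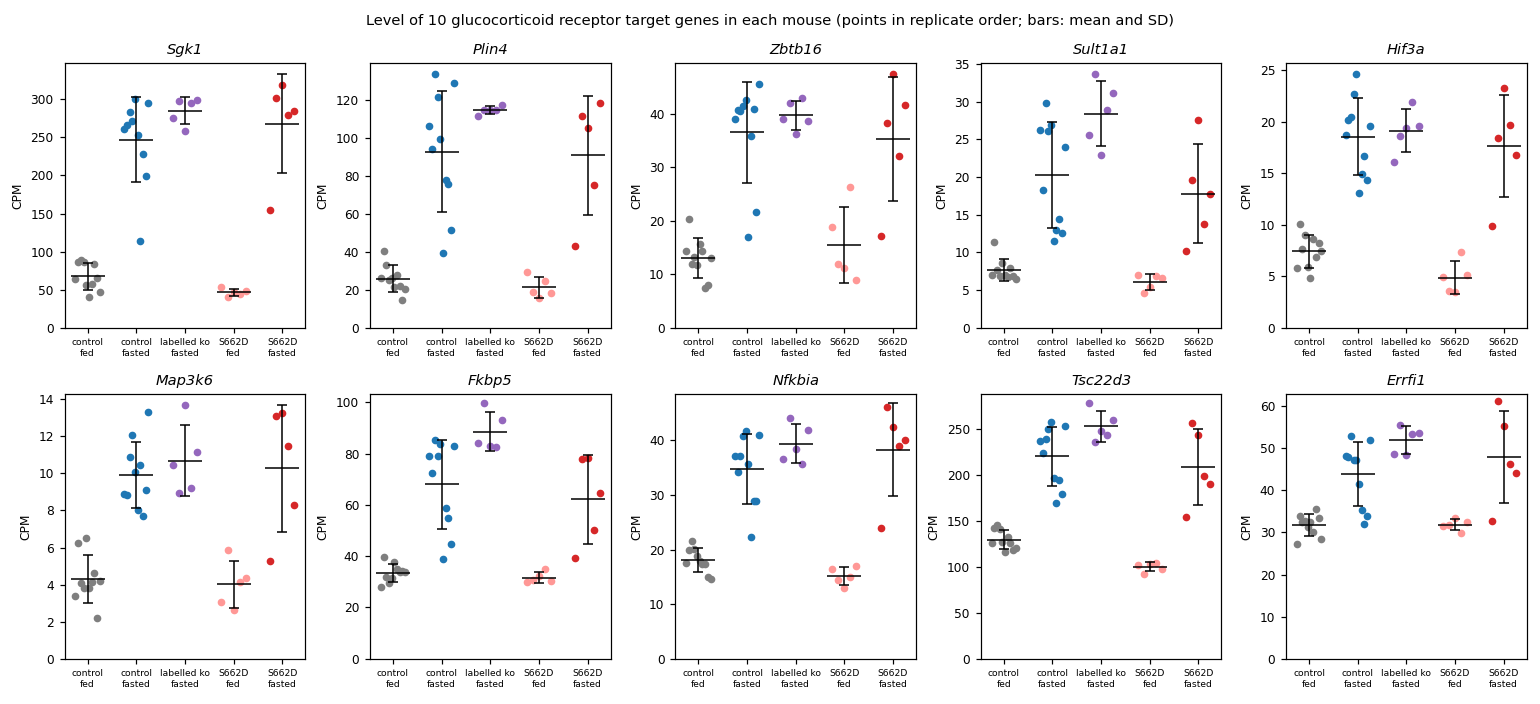
CPM of each member in each of the 35 mice, by group, with 1 panel per gene, points in replicate order, and the mean and SD as bars; each vertical axis starts at 0. In every panel the mean of each fasted group lies above the means of both fed groups. The 5 libraries labelled Per2 ko lie closest together for Plin4 (111.9 to 117.5 CPM) and are more scattered for Map3k6 (8.94 to 13.7 CPM).

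The signalling genes held both ends of the response. Sgk1 (chromosome 10, 21882184 to 21999903, plus strand, mm10) encodes the serum- and glucocorticoid-regulated kinase, which acts on ion channels and transporters. In fed controls it ranged from 40.9 to 89.5 CPM around a median of 64.4, and in fasted controls from 113.7 to 300.6 CPM around a median of 263.6. The 2 groups did not overlap, although fasted replicate 7 (113.7 CPM) stood well below the other 9, of which the lowest held 199.4 CPM. The log2 fold change was 1.87 (SE 0.15, edgeR adjusted p = 1.91e-09). In fed S662D mice the values were 52.9, 40.6, 46.4, 44.9 and 48.2 CPM, and in fasted S662D mice they were 154.8, 302.5, 319.0, 278.9 and 284.5 CPM. Replicate 1 was thus the low one of the fasted S662D mice, and still lay above all fed mice. The log2 fold change was 2.53 (SE 0.22, adjusted p = 8.53e-09 in edgeR). The libraries labelled Per2 ko held 258.8 to 298.7 CPM.

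Map3k6 (chromosome 4, 133240818 to 133252929, plus strand), a kinase at the head of stress-activated MAP kinase cascades, was the scarcest of the 10 per kilobase of exon in control mice, fed and fasted. It ranged from 2.18 to 6.52 CPM in fed controls and from 7.67 to 13.3 CPM in fasted controls, with no overlap (log2 fold change 1.20, SE 0.17, adjusted p = 1.06e-05 in edgeR). In S662D mice it held 3.04, 5.86, 2.65, 4.16 and 4.37 CPM when fed and 5.28, 13.1, 13.2, 11.5 and 8.27 CPM when fasted. Fasted replicate 1 fell inside the fed range, and the log2 fold change was 1.30 (SE 0.23). Errfi1 (chromosome 4, 150853919 to 150868892, plus strand), whose product restrains receptors of the EGF family, responded least. Fed controls held 27.1 to 35.4 CPM and fasted controls 32.0 to 52.8 CPM, so the groups overlapped. Replicates 1 to 5 and 10 lay between 47.2 and 52.8 CPM and replicate 6 at 41.4 CPM, while replicates 7, 8 and 9 lay at 35.4, 32.0 and 33.9 CPM, at or inside the fed range. The log2 fold change was 0.46 (SE 0.09, adjusted p = 0.00092 in edgeR), and within controls 6 to 10 it was 0.28 and not called (adjusted p = 0.26 in edgeR). In S662D mice Errfi1 held 31.8 ± 1.34 CPM fed and 47.9 ± 10.9 CPM fasted (SD, n = 5 each), and replicate 1 (32.8 CPM) again lay within the fed values.

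Fkbp5 (chromosome 17, 28399095 to 28517524, minus strand) encodes a co-chaperone that lowers the receptor's affinity for hormone, the feedback arm of the pathway. Fed controls held 28.0 to 39.7 CPM. Fasted controls fell into replicates 1 to 5 and 10, at 72.5 to 85.5 CPM, and replicates 6 to 9, at 38.8, 58.7, 55.0 and 44.8 CPM. Replicate 6 lay below the highest fed mouse, and the log2 fold change was 1.02 (SE 0.13, adjusted p = 3.00e-06 in edgeR). Controls 1 to 5 alone gave 1.31, and controls 6 to 10 alone gave 0.68, where the call was lost (adjusted p = 0.0565 in edgeR). Fasted S662D mice held 39.3, 78.0, 78.4, 50.3 and 64.5 CPM against 30.0 to 35.2 CPM when fed, without overlap (log2 fold change 0.97, SE 0.18). The libraries labelled Per2 ko held 82.6 to 99.6 CPM.

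The 2 genes with anti-inflammatory products rose without overlap between fed and fasted mice in both genotypes. Tsc22d3 (chromosome X, 140539528 to 140600659, minus strand), which encodes the glucocorticoid-induced leucine zipper, was the most abundant of the 10 per kilobase in fed controls, at 29.8 ± 2.41 CPM per kb (SD, n = 10). In fasted controls Tsc22d3 and Sgk1 stood level on that scale, at 50.6 ± 7.46 and 50.4 ± 11.4 CPM per kb. Tsc22d3 ranged from 116.2 to 145.8 CPM in fed controls and from 168.9 to 257.4 CPM in fasted controls, so the groups did not overlap (log2 fold change 0.76, SE 0.08, adjusted p = 3.65e-08 in edgeR). In S662D mice it held 101.4, 92.5, 103.4, 104.0 and 98.0 CPM fed and 153.7, 255.8, 243.3, 198.7 and 189.5 CPM fasted (log2 fold change 1.06, SE 0.11). Nfkbia (chromosome 12, 55489411 to 55492647, minus strand) encodes the inhibitor that keeps NF-kappaB in the cytoplasm. It ranged from 14.5 to 21.5 CPM in fed controls and from 22.2 to 41.8 CPM in fasted controls, and the nearest fasted mouse, replicate 7, lay just above the fed range (log2 fold change 0.95, SE 0.11, adjusted p = 2.18e-07 in edgeR). In S662D mice it held 12.98 to 17.0 CPM fed and 24.0, 46.2, 42.5, 39.0 and 40.01 CPM fasted (log2 fold change 1.34, SE 0.15).

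The 2 transcription regulators differed in spread. Zbtb16 (chromosome 9, 48654297 to 48836222, minus strand), a zinc finger repressor, held 7.42 to 20.4 CPM in fed controls and 17.0 to 45.7 CPM in fasted controls. Replicates 6 and 9 (17.0 and 21.7 CPM) lay far below the other 8 fasted controls, of which the lowest held 35.9 CPM, and replicate 6 overlapped the fed range. The log2 fold change was 1.49 (SE 0.21, adjusted p = 1.06e-05 in edgeR). Relative to the mean, fed S662D mice were the most scattered of the 5 groups for this gene (coefficient of variation 46.0%, against 32.8% when fasted). S662D mice held 18.8, 11.95, 11.1, 26.3 and 8.99 CPM when fed and 17.2, 38.3, 47.5, 32.1 and 41.7 CPM when fasted. The log2 fold change there was 1.18 (SE 0.28, adjusted p = 0.0129 in edgeR), and the call was lost in 5 of 20 alternatives, among them leaving out fed replicate 2 (adjusted p = 0.0581) or fasted replicate 3 (adjusted p = 0.0531) and fitting the 2 groups alone (adjusted p = 0.223). Hif3a (chromosome 7, 17031507 to 17062427, minus strand), a relative of the hypoxia-inducible factors that can oppose them, held 4.80 to 10.1 CPM in fed and 13.1 to 24.6 CPM in fasted controls (log2 fold change 1.32, SE 0.15, adjusted p = 3.31e-07 in edgeR). In S662D mice it held 4.96, 3.54, 3.42, 7.31 and 5.13 CPM fed and 9.86, 18.4, 23.3, 19.7 and 16.8 CPM fasted. No fasted mouse of either genotype overlapped its fed group.

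The metabolic genes were among the strongest responders. They had the highest coefficients of variation of the members in fasted controls and in fasted S662D mice, but not in the libraries labelled Per2 ko. Plin4 (chromosome 17, 56100591 to 56109803, minus strand), a coat protein of lipid droplets, ranged from 14.6 to 40.5 CPM in fed controls and from 39.2 to 133.7 CPM in fasted controls. The overlap came from fasted replicate 6 (39.2 CPM) and fed replicate 2 (40.5 CPM), and the log2 fold change was 1.85 (SE 0.21, adjusted p = 3.31e-07 in edgeR). In S662D mice the values were 15.6 to 29.2 CPM fed and 43.4, 111.8, 105.6, 75.5 and 118.6 CPM fasted (log2 fold change 2.09, SE 0.29). The 5 libraries labelled Per2 ko held 111.9, 114.6, 115.0, 114.6 and 117.5 CPM, a coefficient of variation of 1.73%. Sult1a1 (chromosome 7, 126672865 to 126676432, minus strand) encodes a sulfotransferase of phenols and related compounds. It held 6.48 to 11.4 CPM in fed controls, and fasted replicates 6 to 9 (11.5, 12.9, 14.5 and 12.5 CPM) lay just above that range while the other 6 fasted controls held 18.2 to 29.8 CPM. The log2 fold change was 1.41 (SE 0.19, adjusted p = 5.44e-06 in edgeR) in controls and 1.56 (SE 0.26) in S662D mice. Of its exon bases 4.05% overlap Sgf29, and counting used no strand. Of the 50-base stretches of its transcripts 6.58% also occur in Gm6939, and every alignment of multi-mapping reads was counted. A small part of its counts could therefore belong to these genes.

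**Figure D2:**
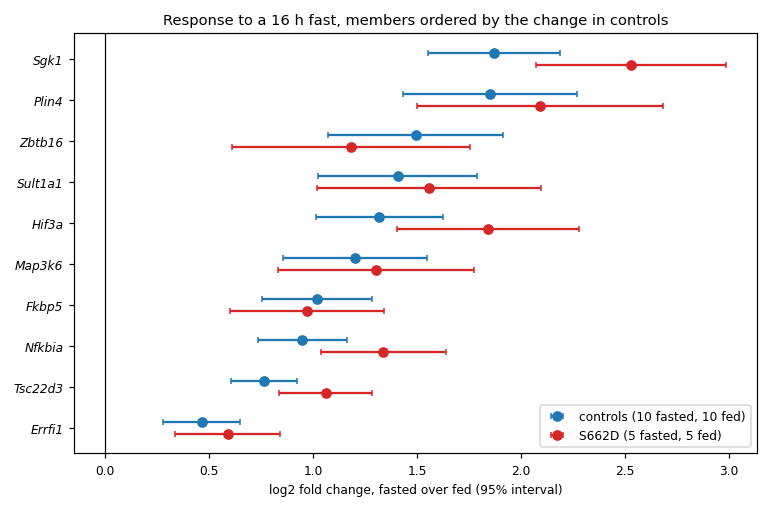
Log2 fold change of each member, fasted over fed, in controls (blue) and S662D mice (red), with 95% intervals from the edgeR fit; genes are ordered by the change in controls. All 20 intervals lie above 0, Sgk1 and Plin4 lead in both genotypes and Errfi1 is last.

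The order of induction was read from the log2 fold changes and tested within each genotype by permuting the feeding labels of the mice. In controls it ran Sgk1 (1.87), Plin4 (1.85), Zbtb16 (1.49), Sult1a1 (1.41), Hif3a (1.32), Map3k6 (1.20), Fkbp5 (1.02), Nfkbia (0.95), Tsc22d3 (0.76) and Errfi1 (0.46). The last 2 of the 9 steps between neighbours passed the test after adjustment. The step from Plin4 to Zbtb16 (0.32, SE 0.13) had an unadjusted p below 0.05 (p = 0.0282, adjusted p = 0.0845, permutation test). The response of Nfkbia exceeded that of Tsc22d3 by 0.18 (adjusted p = 0.0113, 2-sided permutation test on log2 CPM, adjusted over the 9 steps). That of Tsc22d3 exceeded that of Errfi1 by 0.31 (adjusted p = 0.00027, same permutation test). Sgk1 and Plin4 could not be ordered (difference 0.07, SE 0.22). In S662D mice the order was Sgk1 (2.53), Plin4 (2.09), Hif3a (1.84), Sult1a1 (1.56), Nfkbia (1.34), Map3k6 (1.30), Zbtb16 (1.18), Tsc22d3 (1.06), Fkbp5 (0.97) and Errfi1 (0.59). None of its 9 steps was called in the exact permutation test, and 2 had an unadjusted p below 0.05 (Sgk1 over Plin4, p = 0.0476, and Fkbp5 over Errfi1, p = 0.0159, exact). With 5 mice against 5 the exact test allows no p below 0.00794. A single step at that floor could not pass after adjustment over the 9 steps, so the lack of calls does not show a looser order than in controls. Taken over all 45 pairs of members, 33 pairs differed in response in controls and 23 in S662D mice. Across the 10 genes the orders of the 2 genotypes had a Spearman correlation of 0.794. The largest move was that of Zbtb16, from rank 3 to rank 7. Within controls 1 to 5, controls 6 to 10 and S662D libraries with and without the additional digit, Sgk1 and Plin4 took the first 2 places and Errfi1 the last in every set.

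The response was compared between genotypes through the interaction term, and no gene of the 18063 was called (0.0% of all genes; 0 members also in DESeq2). The estimated response was larger in S662D mice for 8 of 10 members, against 50.1% of all genes. This direction turned with the library set: 9 of 10 were positive with the S662D libraries that carry the additional digit (median 0.45), and 3 of 10 with those that do not (median −0.13). The members co-varied between fasted mice, so here and below such counts of signs are not counts of independent observations. The difference was 0.66 for Sgk1 (95% interval 0.12 to 1.19), 0.39 for Nfkbia (0.02 to 0.76) and 0.30 for Tsc22d3 (0.02 to 0.57). These 3 had an unadjusted p below 0.05, against 6.37% of all genes, and the lowest adjusted p of a member was 0.766 in edgeR. Fkbp5 (−0.05, interval −0.50 to 0.41) and Zbtb16 (−0.31, interval −1.02 to 0.40) had the opposite sign. The intervals leave room for differences as large as the smaller responses, such as that of Errfi1.

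In fed mice, 2 of 10 members had a higher estimate in S662D mice than in controls, against 47.9% of all genes, and 8 had a lower one. Tsc22d3 was the 1 member called, lower in S662D mice (1 of 10, against 1.57% of all genes called lower and 4.69% called in either direction). It held 99.8 ± 4.73 CPM (SD, n = 5) against 129.3 ± 10.5 CPM (SD, n = 10), without overlap (a pattern of 0.841% of all genes). The edgeR estimate was −0.37 on the log2 scale (SE 0.10, adjusted p = 0.0241). The difference was −0.45 against controls 1 to 5 (adjusted p = 0.00524) and −0.29 against controls 6 to 10 (adjusted p = 0.285 in edgeR, not called). The call was also lost without fed S662D replicate 2, 3 or 4. Hif3a (−0.60, SE 0.20, adjusted p = 0.0777) and Sgk1 (−0.54, SE 0.19, adjusted p = 0.0957) had larger estimates and were called by DESeq2 (adjusted p = 0.0239 and 0.0394) but not by edgeR with all controls. Against controls 1 to 5 alone, edgeR called Sgk1 (−0.71, adjusted p = 0.00938), and against controls 6 to 10 alone Sgk1 gave −0.35 (adjusted p = 0.572 in edgeR). Hif3a gave −0.65 and −0.55 against these sets and was called against neither. Nfkbia gave −0.25 with all controls (adjusted p = 0.291 in edgeR), −0.37 against controls 1 to 5 and −0.12 against controls 6 to 10. Tsc22d3, Hif3a and Sgk1 were the 3 members with an unadjusted p below 0.05 with all controls, against 21.0% of all genes, a share close to the background. Errfi1 (0.00, interval −0.23 to 0.23) and Fkbp5 (−0.08, interval −0.41 to 0.25) gave the estimates nearest to 0 beside Map3k6 (−0.06).

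In fasted mice no difference between S662D and control mice was detected for any member. None was called by edgeR (against 5.57% of all genes) or by DESeq2, and none had an unadjusted p below 0.05 (against 20.8%). Estimates ran from −0.19 for Sult1a1 (interval −0.62 to 0.23) to 0.14 for Nfkbia (interval −0.11 to 0.38). The sign of the estimates differed between library sets. Against controls 6 to 10 all 10 estimates were positive (median 0.19), and against controls 1 to 5 only 2 were (median −0.21). With S662D libraries that carry the additional digit all 10 were positive (median 0.13), and with those that do not none was (median −0.33).

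All 10 members had a higher estimate in the libraries labelled Per2 ko than in fasted controls, against 48.3% of all genes, but none was called by edgeR or DESeq2 (5 genes of all were called by edgeR, 0.0277%). Since the members co-varied between fasted mice, these 10 signs are not 10 independent observations. Unadjusted p lay below 0.05 for 4 members (Sult1a1 0.49, Fkbp5 0.38, Errfi1 0.25 and Tsc22d3 0.20 as log2 fold changes), against 6.07% of all genes. The median of the 10 was 0.20. It was 0.06 against controls 1 to 5, with 8 positive and no unadjusted p below 0.05, and 0.37 against controls 6 to 10, with 10 positive. Against fasted S662D mice, too, all 10 estimates were higher (51.5% of all genes), and no member was called in edgeR (7.34% of all genes were). Fkbp5 had the lowest adjusted p (log2 fold change 0.51, SE 0.18, adjusted p = 0.0697), with no overlap between the 82.6 to 99.6 CPM of these libraries and the 39.3 to 78.4 CPM of S662D mice, as for 2.17% of all genes. Sult1a1 followed with 0.68 (SE 0.24, adjusted p = 0.0721 in edgeR). Unadjusted p was below 0.05 for 3 members (Tsc22d3 beside Fkbp5 and Sult1a1), against 22.4% of all genes. Fkbp5 and Sult1a1 were called in DESeq2 (adjusted p = 0.0393 for Fkbp5 and 0.0494 for Sult1a1). Against S662D libraries with the additional digit alone, 5 of 10 estimates were positive.

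**Figure D3:**
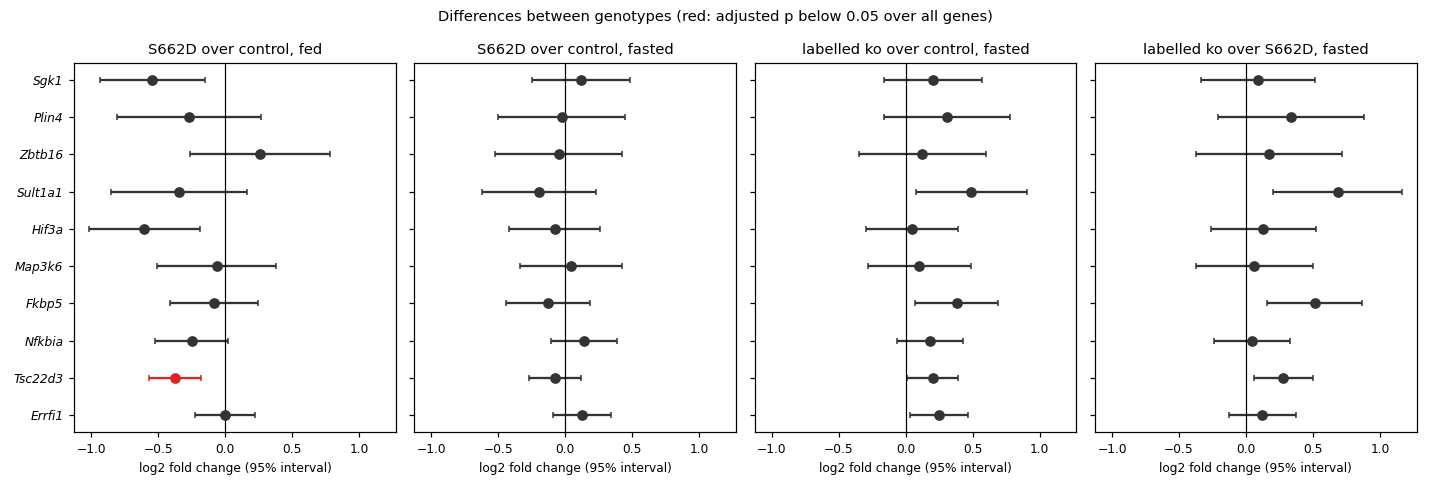
Log2 fold change of each member between genotypes, with 95% intervals from the edgeR fit, in 4 panels that share 1 horizontal scale. Tsc22d3 in fed S662D mice is the 1 value past the threshold, and all 10 points of both panels on the labelled knockout lie right of 0.

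Fasted mice differed in how far the 10 genes had risen, and they did so as a set. For each mouse, log2 CPM of the 10 genes was averaged after subtracting each gene's mean in fed controls. Fed controls lay between −0.26 and 0.41 on this scale, the highest being replicate 2, and fed S662D mice between −0.43 and −0.02. Fasted controls 1 to 5 lay between 1.29 and 1.51 and the libraries labelled Per2 ko between 1.42 and 1.54. Fasted controls 6, 7, 8 and 9 lay at 0.76, 0.87, 1.01 and 0.79, and replicate 10 at 1.53. Fasted S662D replicate 1 lay at 0.47, and replicates 2 to 5 between 1.17 and 1.56. The 5 low mice were thus 4 of the 5 fasted controls of the second library set and 1 of the 2 fasted S662D mice without the additional digit. In replicate 1 of the fasted S662D mice 4 of the 10 genes exceeded every fed mouse, in fasted control 6 it was 7, in controls 7 and 8 it was 9 and in control 9 it was 8. All 10 exceeded every fed mouse in each of the other 15 fasted mice.

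**Figure D4:**
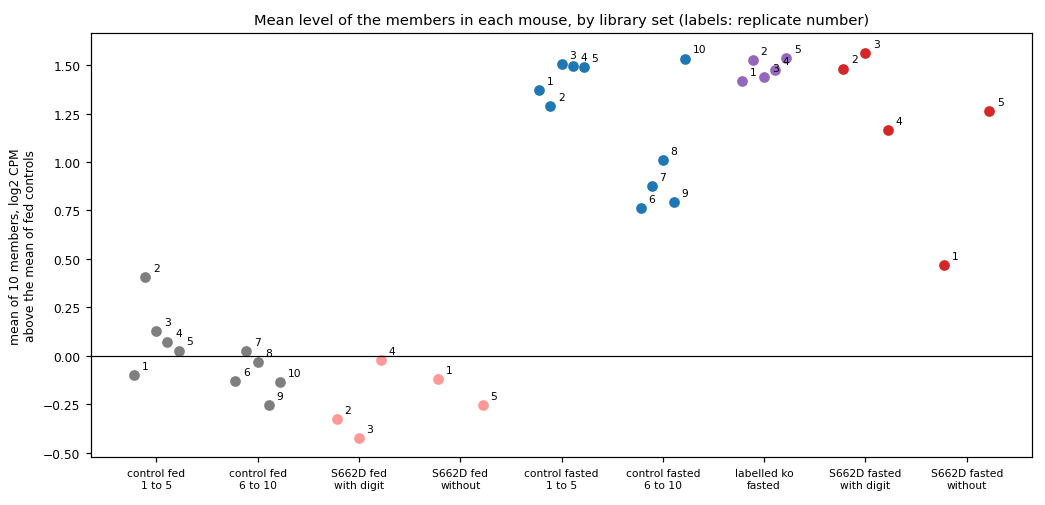
Mean over the 10 members of log2 CPM above the fed-control mean (vertical axis), for each of the 35 mice by library set, with replicate numbers beside the points. Fasted controls 6 to 9 and fasted S662D replicate 1 lie between 0.47 and 1.01, and the other 15 fasted mice between 1.17 and 1.56.

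Spread within a group followed the same mice. The median coefficient of variation over the 10 genes was 21.4% in fasted controls, 27.9% in fasted S662D mice and 7.69% in the libraries labelled Per2 ko. It was 7.21% in fasted controls 1 to 5 taken alone and 26.9% in fasted controls 6 to 10. On the log2 scale the median SD of the members was 0.35 in fasted controls, where all genes had a median of 0.15, and 0.11 in the libraries labelled Per2 ko, where all genes had 0.14. The difference in spread was not tested.

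After each group's mean was removed, all 45 pairs of members correlated positively over the 20 fasted mice. Of these, 43 were called for Pearson's r and 44 for Spearman's rho (permutation within groups, adjusted over the 45 pairs). The median r was 0.75 and the median rho 0.75, and the median r was 0.69 when the 2 mice farthest from the median of the first gene of a pair were left out. Against other tested genes, the members' median r was −0.02 and their median absolute r was 0.24 (0.34 in fasted controls alone). The share of pairs called among other genes was not computed, and neither was co-variation among other genes raised by fasting. Genes outside the 10 also followed their mean closely, as given below for Cdkn1a (r = 0.976). Fewer pairs were called when fasted controls were taken alone (28 of 45, n = 10, median r 0.69), when fasted S662D replicate 1 was left out (28 of 45, n = 19, median r 0.64) and when the mean of each library set was removed (11 of 45, median r 0.63). All 45 stayed positive in each of these. In the 15 fed mice 38 of 45 pairs were positive with a median r of 0.35, 9 had an unadjusted p below 0.05 and none was called for r or rho. The difference between fasted and fed mice in co-variation was not tested.

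**Figure D5:**
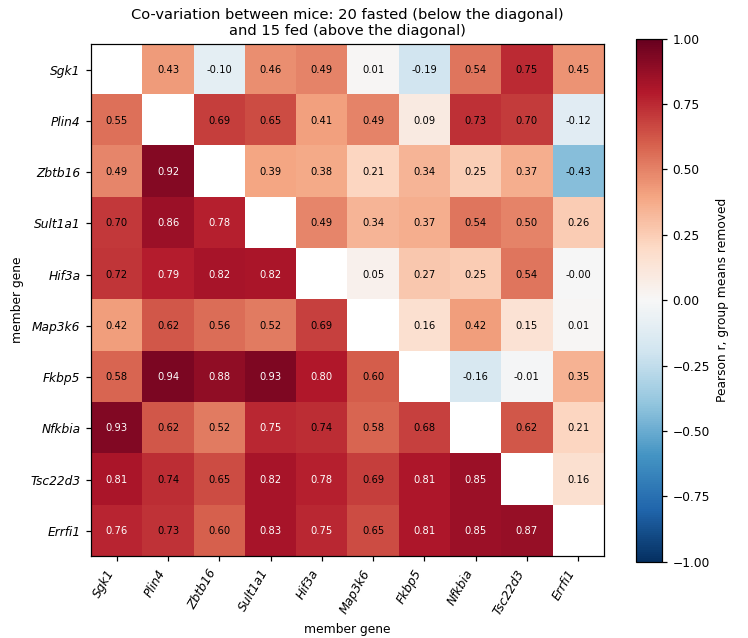
Pearson r of each pair of members between mice, with group means removed, for 20 fasted mice below the diagonal and 15 fed mice above it; colour runs from −1 (blue) to 1 (red). Values below the diagonal run from 0.42 (Sgk1 with Map3k6) to 0.94 (Fkbp5 with Plin4), and those above it from −0.43 to 0.75.

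The closest pairs did not all share 1 pattern. Fkbp5 went with Plin4 (r = 0.945, rho = 0.905, adjusted permutation p = 0.00027, n = 20), with Sult1a1 (r = 0.933) and with Zbtb16 (r = 0.884). Sgk1 went with Nfkbia (r = 0.927, rho = 0.890, adjusted permutation p = 0.00015, n = 20). It went only loosely with Zbtb16 (r = 0.490) and Map3k6 (r = 0.420), the 2 pairs that were not called for Pearson's r. Fasted controls 6 and 7 show the contrast. Replicate 6 held Sgk1 at 253.7 and Nfkbia at 35.7 CPM, close to the group medians of 263.6 and 36.4, yet held the lowest values of the group for Fkbp5 (38.8 CPM), Plin4 (39.2 CPM), Zbtb16 (17.0 CPM) and Sult1a1 (11.5 CPM). Replicate 7 held the lowest Sgk1 (113.7 CPM) and Nfkbia (22.2 CPM) of the group, while its Zbtb16 (35.9 CPM) and Plin4 (77.7 CPM) were nearer to the group medians of 40.7 and 96.8 CPM. These mice were singled out after their values were seen. Map3k6 had the loosest ties, with a median r of 0.602, and Sult1a1, Fkbp5 and Tsc22d3 had the closest (0.816, 0.810 and 0.810).

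Other measures that moved with the mean of the members across fasted mice are given as descriptions (n = 20, group means removed). The TMM factor had r = −0.608 (rho −0.663, and −0.293 with set means removed), and with library size alone in place of TMM 42 pairs of members were still called. Total counts had r = −0.291 and the mitochondrial share 0.067. Agrp, the hunger peptide of the arcuate nucleus, had r = 0.682 (rho 0.680, without 2 mice 0.583, with set means removed 0.712). Pomc had r = −0.538 (with set means removed −0.434). Both were picked from the hypothalamic markers after their values were seen. The sum of that marker set had r = −0.393 (with set means removed −0.362), the opposite sign to Agrp. Of 14 marker sets, that of oligodendrocyte precursors had the highest r, 0.773 (3 genes, 106.8 to 138.5 CPM in fasted controls, with set means removed 0.482), followed by astrocytes with 0.532 (7 genes, 2266 to 2605 CPM, with set means removed 0.196). Microglia had −0.467 (with set means removed −0.450) and oligodendrocytes −0.438 (−0.196). With set means removed the most negative sets were pituitary (−0.591, from −0.341) and endothelium (−0.585, from −0.247), and pituitary markers summed to at most 6.39 CPM in any mouse. Nr3c1 had r = −0.416 (with set means removed −0.577). Choroid plexus markers, which mark neighbouring tissue, summed to 19.2 to 1533 CPM in fasted controls and had r = −0.239 (without 2 mice 0.041, with set means removed 0.185). Their part in the members' variation was not tested.

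Of 15469 other genes averaging 1 CPM or more, those most like the mean of the members over the 20 fasted mice were Cdkn1a (r = 0.976), Pnpla2 (0.958), Arrdc2 (0.957), Mfsd2a (0.955), Hr (0.939), Gpt2 (0.937), Gjb6 (0.935), Timp4 (0.933), Htra1 (0.928) and Cd38 (0.923). Of the 50 most alike, 45 were called higher on fasting in controls. Cd38 was not (log2 fold change 0.17, adjusted p = 0.258 in edgeR), and Cdkn1a, an inhibitor of the cell cycle, rose by 2.64 on the log2 scale, more than any member. Matched singly, the closest genes were Pdk4 for Sgk1 (r = 0.912), Cdkn1a for Fkbp5 (0.959), F3 for Tsc22d3 (0.927), Mertk for Zbtb16 (0.910), Gjb6 for Errfi1 (0.914), Chst2 for Map3k6 (0.899), Gm42644 for Nfkbia (0.926), Pnpla2 for Sult1a1 (0.947), Hr for Plin4 (0.968) and Cd38 for Hif3a (0.957). Chst2 did not pass the test on fasting (0.13, adjusted p = 0.154 in edgeR). Genes picked for likeness carry no test.

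Further genes known to respond to glucocorticoids were taken from a list of 38, of which 37 were tested. Of these, 31 rose in controls and 28 in S662D mice, where 2.2% and 1.8% of all genes were called higher, and none fell in either (median log2 fold change 0.42 and 0.55, against 0.00 for all genes tested in both). The list was drawn up with earlier results of these data known and is no independent evidence. Cdkn1a (2.64), Arrdc2 (1.83) and the lipase inhibitor Angptl4 (1.61) changed most in controls and Rhob (0.20) least among those called. In S662D mice Cdkn1a (2.61), Arrdc2 (2.05) and Cebpd (1.75), a transcription factor, changed most and Ndrg2 (0.21) least. The clock gene Per1, itself a receptor target, rose by 0.36 (SE 0.05) in controls and by 0.41 (SE 0.08) in S662D mice. Of the 14 genes that the receptor is known to repress, 10 were tested and none was called in either genotype by edgeR, with 2 and 4 unadjusted p below 0.05. Of all genes, 13.3% in controls and 14.3% in S662D mice had an unadjusted p below 0.05 on fasting. DESeq2 called 1 higher in controls and 1 lower in S662D mice.

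The receptor's own machinery gave no called rises on fasting. Nr3c1 fell on fasting by 0.25 (SE 0.05, adjusted p = 0.00155 in edgeR) in controls, from 109.1 ± 9.85 to 91.6 ± 6.79 CPM (SD, n = 10 each), and by 0.33 (SE 0.07) in S662D mice. Of 11 receptor and chaperone genes, Dnajb1 was the other one called by edgeR (fell by 0.17 in controls, where DESeq2 called 3 lower), and the mineralocorticoid receptor gene Nr3c2 gave −0.11 (adjusted p = 0.312 in edgeR). None of 9 coregulator genes was called on fasting in either genotype by edgeR or DESeq2, and none had an unadjusted p below 0.05. None of 5 tested genes for steroid handling was called on fasting by either tool, with 1 unadjusted p below 0.05 in each genotype. Between genotypes, edgeR called 2 of the 9 coregulator genes higher in fed S662D mice than in fed controls, against 3.12% of all genes. DESeq2 called 5 of the 9 higher there, and neither tool called any of them lower.

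Relatives and partners of the members were called less uniformly. Of 8 immunophilin genes, Fkbp5 was the 1 called on fasting by edgeR (DESeq2 also called 1 lower in controls), and the other receptor co-chaperone Fkbp4 gave −0.13 (adjusted p = 0.1001 in edgeR). Of 10 genes of the hypoxia-inducible factor system, Hif3a was the 1 called, and Hif1a gave −0.06 and Epas1 −0.03. Hypoxia targets gave 2 rises and 1 fall among 14 in controls (Slc2a1 0.58, Kdm3a 0.24, P4ha1 −0.21) and 2 rises in S662D mice (Adm 1.12, Slc2a1 0.81). Of 4 tested perilipins, Plin4 and Plin3 (0.25 in controls, 0.41 in S662D mice) rose. Plin5 gave 0.59 in controls (adjusted p = 0.0660 in edgeR) and −0.07 in S662D mice, and Plin2 gave −0.06 and −0.12. DESeq2 called 3 of the 4 higher in controls. In the Sgk1 group of 9, Sgk3 rose as well (1.47 in controls, 1.12 in S662D mice), Ndrg2, a substrate of Sgk1, rose in S662D mice (0.21), and Sgk2 gave −0.43 (adjusted p = 0.322 in edgeR). Tsc22d4 rose beside Tsc22d3 (0.15 in controls, 0.37 in S662D mice), and Tsc22d1 gave 0.04. Sult1a1 was the 1 called of 3 tested sulfotransferases. Of 10 tested targets of NF-kappaB, the factor that Nfkbia restrains, none was called by edgeR or DESeq2 on fasting, with 2 unadjusted p below 0.05 in each genotype.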

How the data were processed

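PolyA RNA of 35 mouse hypothalami was sequenced as paired reads. Gene counts were deposited by the authors as whole, unnormalised fragment counts, made with featureCounts 2.0.1 on mm10 with the GENCODE vM12 annotation, without strand and with every alignment of multi-mapping reads counted, per the file headers; alignment used STAR 2.7.10b, per the submitters' processing notes. Members were taken by gene name. The members and gene lists were chosen with earlier results of these data known.

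All 35 libraries (17959586 to 37027342 counts, grouped by label) entered 1 edgeR 4.0.16 quasi-likelihood fit (R 4.3.3; TMM, filterByExpr with a minimum count of 10, robust), with Benjamini-Hochberg adjustment over 18063 genes. DESeq2 1.42.0, other scalings and filters, library sets, left-out replicates and a replicate block were alternatives. Intervals are 95%. CPM used TMM, and log2 CPM a prior count of 2. Co-variation and order of induction used permutation tests (100000 resamples, exact for 5 mice against 5). The fasted mice number 20, where the written design says 25. Named genes beyond the members were the 10 most correlated with the members' mean, the closest to each member, and called list genes (beyond 6, the 3 with the largest and the 1 with the smallest change). Per1 and list genes named as not called were chosen after their values were seen. Scripts were tested on simulated data. No deposited coordinates were converted; RefSeq promoter windows are on GRCm38.p6, the build of mm10.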

Additional observations from a re-analysis of the deposited data

Results flagged for a closer look

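Of 50 sets of values tested (10 genes in 5 groups), 2 had 1 mouse far from the others of its group, and chance alone gives about 1 in 20. Fasted S662D replicate 1 held 154.8 CPM of Sgk1, where the nearest of the other 4 mice held 278.9 CPM. Fed control replicate 2 held 11.4 CPM of Sult1a1, where the nearest of the other 9 held 8.59 CPM.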

How the results depend on the processing

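Over 47 alternatives no called change of a member turned its direction. The members called on fasting numbered 8 to 10 in controls and 1 to 10 in S662D mice. In S662D mice the lowest count, 1, came from the libraries without the additional digit alone, and the replicate block gave 6 (without Fkbp5, Plin4, Sult1a1 and Zbtb16). The numbers were not taken to pair the mice, since in no pair of groups did every same-numbered pair correlate above 0.1. Fed and fasted controls gave −0.19 to 0.06, fed and fasted S662D mice −0.11 to 0.16, and fed control and fed S662D mice −0.05 to 0.24, with 3 of 5 pairs above 0.1 and 3 of 5 mice closest to their own number, a hint from the data and not from the design. For fed S662D against control mice, 1 member was called. DESeq2 gave 3 and the replicate block 3 (Tsc22d3, Hif3a and Nfkbia), controls 1 to 5 alone gave 2, and controls 6 to 10 alone, the libraries without the digit alone, the digit as a term and no filter on low counts each gave 0, with 0 to 1 when 1 mouse was left out. For the libraries labelled Per2 ko against fasted S662D mice, 0 members were called, 2 with DESeq2 and 0 to 1 when 1 mouse was left out (Sult1a1 without fasted S662D replicate 3, adjusted p = 0.0299 in edgeR). Of 45 pairs, 43 were called in co-variation, 28 in fasted controls alone, 11 with set means removed, 28 without S662D_fasted replicate 1 (chosen after seeing the data), and 0 in fed mice or fed controls alone. The cause of these changes was not tested. Counts of called genes over all genes ranged from 304 to 1315 for fasting in controls, 7 to 683 for fasting in S662D mice, 16 to 3106 for fed and 20 to 3148 for fasted S662D against control mice, 0 to 486 for the interaction, 2 to 99 for the labelled knockout against controls and 26 to 2986 against S662D mice. At 2.18 to 13.7 CPM, Map3k6 has the fewest counts of the members in fed and fasted controls.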
